A study of Mus musculus with 2 samples.

Results

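The nuclei described here were endothelial nuclei of the mouse liver selected on their counts of Vwf and of 11 other genes. Vwf encodes von Willebrand factor, the adhesive glycoprotein that vascular endothelium stores and secretes for platelet capture. A nucleus was a member when it held at least 300 detected genes, at most 6000 unique molecular identifiers (UMIs, each a counted transcript), at least 1 Vwf UMI, at least 2 UMIs over Ptprb, Pecam1, Kdr, Adgrf5 and Jam2, and at most 1 UMI over Reln, Dcn, Ms4a7, Clec4f, Pkhd1 and Bcl11b, which mark stellate cells, fibroblasts, macrophages, cholangiocytes and T cells. The rule gave 181 nuclei of 20111 barcodes, 65 of 9363 in the library labelled Flox and 116 of 10748 in the library labelled HKO. Nuclei that met the same rule with no Vwf UMI, 794 in Flox and 1261 in HKO, are called Vwf-negative endothelial nuclei and served for comparison.

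Both libraries were made from liver of C57BL6/J males fed a MASH diet (40% of energy from fat, 20% from fructose, with 2% cholesterol) for 5 months from an age of 10 to 12 weeks. Flox mice carried Themis flox/flox. HKO mice carried Themis flox/flox with Alb-Cre, in which the albumin promoter drives Cre in hepatocytes, so the endothelial nuclei were not the cells targeted. Livers of 4 mice per genotype were pooled into 1 library of sorted nuclei, and the mice of a library cannot be told apart. There was no chow-fed group.

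Blood reaches the liver through portal veins and hepatic arteries, filters along the sinusoids and leaves through central veins. Sinusoidal endothelium is fenestrated, takes up waste macromolecules through scavenger receptors such as the stabilins, and is known to hold little von Willebrand factor. The endothelium of larger vessels is continuous and packs the protein, together with P-selectin and other cargo, into Weibel-Palade bodies. Central vein endothelium is also known as a source of Wnt ligands and R-spondin 3, which set the metabolic zones of the hepatocytes around it.

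The libraries held 58171337 UMIs (Flox) and 40475938 UMIs (HKO), with medians of 6216 and 2227.5 UMIs per barcode. Depth differed less among the endothelial nuclei: the members had a median of 1269 UMIs in Flox and 1039.5 in HKO, and Vwf-negative nuclei 1363 and 1007. The libraries shared 27 barcodes, of which 0 belonged to a member. Themis, the targeted gene, was at 158 CPM (UMIs of the gene as a share of all UMIs of the nuclei summed, times 1000000) in nuclei rich in hepatocyte transcripts of Flox and at 255 CPM in those of HKO, higher in the library labelled HKO. These counts are of 3′ tags, and which part of Themis the floxed allele removes is not given in the sources used here, so they do not check the label. The members held 1 Themis UMI in Flox and 7 in HKO. Each genotype had 1 library, so the genotypes are compared without a test, and 95% intervals cover counting error only.

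The genes that chose the members are described first, and no test rests on them. Vwf (chromosome 6, 125546774 to 125686679, plus strand, GRCm38) summed to 141 UMIs in the Flox members and 269 in the HKO members. A single Vwf UMI was all that 38 of 65 Flox and 57 of 116 HKO nuclei held, and 9 and 11 nuclei held 5 or more, with a highest count of 9 in Flox and 12 in HKO. Membership therefore rested on a single transcript in 58.5% of the Flox and 49.1% of the HKO nuclei. Ptprb, a receptor phosphatase of endothelial cells, was at 7134 CPM in Flox and 4985 CPM in HKO and was found in 64 of 65 and 113 of 116 nuclei. Pecam1, the junctional adhesion molecule CD31, was at 1629 and 1032 CPM, in 54 and 80 nuclei.

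**Figure D1:**
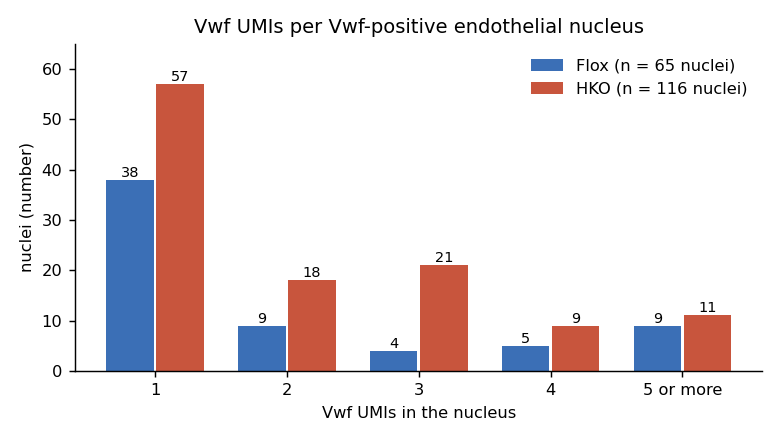
Number of Vwf-positive endothelial nuclei (vertical axis) by the number of Vwf UMIs each held (horizontal axis), in the Flox library (blue, 65 nuclei) and the HKO library (red, 116 nuclei). Single-UMI nuclei were the largest class in both, with 38 and 57 nuclei, and 9 and 11 nuclei held 5 or more.

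Most Vwf transcripts of either library lay in these nuclei, 80.6% of the 175 Vwf UMIs of Flox and 79.1% of the 340 of HKO. Nuclei with at least 50 hepatocyte UMIs and no endothelial or exclusion UMI were counted as a limited measure of free RNA. Vwf was found in 3 of 4441 of them in Flox (0.0676%, median depth 7396 UMIs) and in 6 of 2641 in HKO (0.227%, median depth 6111 UMIs). Among endothelial nuclei the shares were 7.57% and 8.42%, at median depths of 1359 and 1010 UMIs. A second set had at most 6000 UMIs, no endothelial UMI and at least 3 UMIs over Dcn and Reln. A Vwf UMI was held by 0 of its 780 nuclei in Flox, where 3 counts would have given 0.385%, and by 3 of 931 in HKO. Both sets leave out nuclei with an endothelial UMI, and with them those that took up other endothelial RNA. These shares can therefore understate free Vwf RNA. At the borders of the rule, 0 Flox and 6 HKO members had exactly 2 endothelial UMIs, and 0 and 6 nuclei with 1 such UMI stayed outside. Exactly 1 exclusion UMI was present in 3 and 7 members, and the nuclei left out for depth alone, 5 in Flox and 7 in HKO, began at 9460 and 6210 UMIs where the deepest members had 3428 and 5492.

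Markers beyond the rule placed the members in the endothelium. All 20 pan-endothelial genes were detected in both libraries, at a summed level of 10859 CPM in Flox and 7737 CPM in HKO, against 7456 and 6372 CPM in Vwf-negative nuclei. Egfl7, a secreted regulator of vessel growth, was highest among the tested members of that list, at 3203 CPM in Flox and 2441 CPM in HKO. Megakaryocytes and platelets also make von Willebrand factor, and 9 of the 11 genes of their list, among them Pf4, Ppbp and Itga2b, were at 0 in the members of both libraries. The remaining 2, Itgb3 and Nbeal2, gave 3 UMIs in Flox and 6 in HKO.

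Transcripts of other liver cells were present too. Hepatocyte genes summed to 5158 CPM in Flox and 4323 CPM in HKO members, below the 6672 and 6117 CPM of Vwf-negative nuclei, with all 16 genes detected. Stellate genes summed to 163 and 286 CPM with 7 of 15 at 0 in both libraries, Lrat and Pdgfrb among them, and mural genes to 54.3 and 84.4 CPM with 8 of 13 at 0, Myh11 and Cnn1 among them. Macrophage genes summed to 86.9 CPM in Flox and 331 CPM in HKO, with 5 of 15 at 0 including Vsig4 and Timd4. T cell, B cell and cholangiocyte genes summed to 10.9, 10.9 and 86.9 CPM in Flox and to 64.9, 77.9 and 221 CPM in HKO. Of the cholangiocyte UMIs, Pkhd1l1 gave 7 of 8 in Flox and 9 of 34 in HKO. Mesothelial genes were at 0 in 7 of 8 cases, and the eighth, Gpm6a, a neuronal membrane glycoprotein gene also listed for mesothelium, was at 185 and 143 CPM. Scrublet scores placed 0 Flox and 10 HKO members among the likely doublets, and those 10 nuclei held 216 of the 666 hepatocyte UMIs and 24 of the 44 UMIs of the leukocyte gene Ptprc in the HKO members.

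Vwf-positive nuclei made up 7.57% of endothelial nuclei in Flox (65 of 859, exact 95% interval 5.89 to 9.54) and 8.42% in HKO (116 of 1377, 7.01 to 10.0). The ratio of HKO to Flox was 1.11 (0.832 to 1.49), an interval that includes 1. After every endothelial nucleus was thinned to 500 UMIs the shares were 3.96% and 5.45%, with a ratio of 1.38 (0.926 to 2.04). Thinned nuclei rich in hepatocyte transcripts, again only those without an endothelial UMI, held no Vwf UMI in either library. As a share of all nuclei with at least 300 genes the members were 0.694% in Flox and 1.08% in HKO, a ratio of 1.56 (1.15 to 2.11), a figure that the share of hepatocyte nuclei and the sort can also set. Over all endothelial nuclei the Vwf level was 106 CPM in Flox and 155 CPM in HKO, 1.46 times as high in the library labelled HKO (1.19 to 1.81).

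The main comparison was between Vwf-positive and Vwf-negative endothelial nuclei, taken within each library. UMIs were summed per library and class, the 12 rule genes were left out, and 8803 genes were tested in edgeR with the library as a block. At an adjusted p under 0.05, 302 genes (3.43%) were called higher and 262 (2.98%) lower in Vwf-positive nuclei. Each kept its direction in both libraries, but the calls were made over both libraries together. The median log2 difference over all tested genes was -0.05. The p-values rest on a spread shared across genes, with 1 residual degree of freedom over 2 libraries that also differ in genotype. They reflect only in part how far the 2 libraries differ for a single gene. Fmo2, for example, was 80.8-fold higher in Flox and 23.8-fold higher in HKO, with a fitted log2 difference of 5.16 and an SE of 0.20. With DESeq2 the counts were 95 and 52, and without the library block 147 and 81. The gene lists used below were chosen with earlier results of these data known. Counts of calls per list therefore describe the members and are no independent test.

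Members carried far less of the sinusoidal programme. Of 21 tested sinusoidal genes, 19 were called lower and 0 higher, with a median log2 difference of -1.50, against 2.98% of all genes called lower. Their summed level was 6787 CPM in Vwf-positive and 18427 CPM in Vwf-negative nuclei of Flox, and 5394 and 14615 CPM in HKO. With DESeq2, 12 of these genes were called lower. Gata4, a transcription factor of the sinusoid, and Il1a, a cytokine, were the 2 not called, at log2 differences of 0.42 and -1.50.

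The scavenger and lectin receptors of the sinusoid showed large differences. Stab2, the hyaluronan receptor stabilin-2 (chromosome 10, 86841198 to 87008025, minus strand), was at 195 CPM in Vwf-positive against 1483 CPM in Vwf-negative nuclei of Flox and at 169 against 1262 CPM in HKO. Its log2 difference was -2.94 (SE 0.19, adjusted p 4.7e-48 by edgeR), and it was found in 6 of 65 and 11 of 116 members. Clec1b, the podoplanin receptor CLEC-2, fell by 3.56 on the log2 scale, from 603 to 54.3 CPM in Flox and from 467 to 38.9 CPM in HKO. Lyve1, a second hyaluronan receptor, fell by 2.67, Clec4g by 2.03, the mannose receptor gene Mrc1 by 2.05 and the Fc receptor gene Fcgr2b by 1.97, each with the same direction in both libraries. Stab1 fell by 0.59, from 870.4 to 619 CPM in Flox and from 753 to 487 CPM in HKO, a call that ended with DESeq2, without the block and with at least 2 Vwf UMIs.

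Other sinusoidal genes were lower as well. Adam23, a metalloprotease-like adhesion gene, was at 152 against 1520 CPM in Flox and 149 against 1222 CPM in HKO (log2 difference -3.18, SE 0.20, adjusted p 2.7e-52 by edgeR). Dnase1l3, a secreted nuclease, fell by 2.81, and Bmp2, the BMP ligand that induces hepcidin in hepatocytes, fell by 2.55 on the log2 scale. Maf, a transcription factor of sinusoidal identity, was at 782 CPM in Flox and 824 CPM in HKO members, where Vwf-negative nuclei had 2368 and 1939 CPM. Sinusoidal transcripts were thus reduced and not absent. F8, which encodes coagulation factor VIII, the partner of von Willebrand factor in plasma, was at 1835 against 2278 CPM in Flox and 1486 against 1922 CPM in HKO, the smallest called difference of the list (log2 -0.37), lost under 5 of the 10 alternatives.

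Central vein genes moved the other way. Of 12 tested, 10 were called higher and 1 lower, with a median log2 difference of 2.48, against 3.43% of all genes called higher. Their sum was 7265 CPM in Vwf-positive against 1744 CPM in Vwf-negative nuclei of Flox, and 5744 against 1366 CPM in HKO. DESeq2 called 7 of them higher. Kit, a receptor tyrosine kinase of pericentral sinusoids, was the gene called lower (log2 -1.68), and Wnt2, a Wnt ligand, was not called, at 0.67 (adjusted p 0.25 by edgeR).

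The secreted ligands of this list differed most. Rspo3, the R-spondin that amplifies Wnt signalling (chromosome 10, 29452416 to 29535867, minus strand), had 327 UMIs in the Flox and 384 in the HKO members. Its level was 3551 against 301 CPM in Flox and 2492 against 114 CPM in HKO, a log2 difference of 3.95 (SE 0.14, adjusted p 2.9e-167 by edgeR). Wnt9b, a Wnt ligand of the central vein, was at 195 against 8.87 CPM in Flox and 117 against 2.53 CPM in HKO (log2 4.80). Bmp4, a BMP ligand (chromosome 14, 46383520 to 46390669, minus strand), was found in 19 of 65 and 48 of 116 members but in 7 of 794 and 17 of 1261 Vwf-negative nuclei. Its levels were 380.1 against 8.87 CPM in Flox and 714 against 16.4 CPM in HKO (log2 5.40, SE 0.29). Among the other genes called higher were Lhx6, a homeobox factor (3.06), Selp, which encodes P-selectin (2.92), the cadherin gene Cdh13 (2.04), the thrombomodulin gene Thbd (1.29) and Fabp4, a fatty acid carrier (0.79), the last pair each lost under 3 of the 10 alternatives. Gja5, whose connexin is known from arteries, also stood on this list and was called higher (3.15), as was Ptgs1, which encodes cyclooxygenase-1 (1.08).

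**Figure D2:**
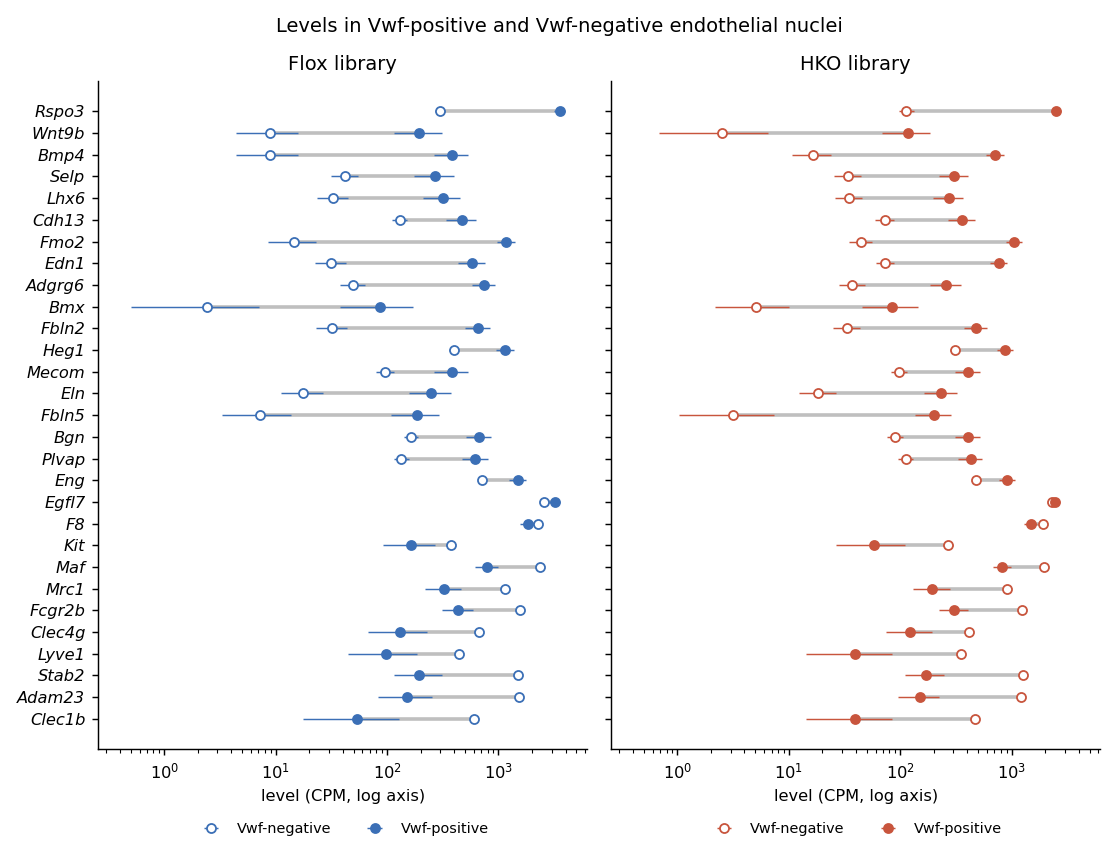
Level of 29 genes in CPM (horizontal axis, log scale) in Vwf-positive (filled) and Vwf-negative (open) endothelial nuclei of the Flox library (left) and the HKO library (right), with 95% intervals for counting error. Genes from Rspo3 to Eng lie to the right in Vwf-positive nuclei and genes from F8 to Clec1b to the left in both libraries, with Rspo3 at 3551 against 301 CPM and Stab2 at 195 against 1483 CPM in Flox.

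Portal vein and arterial genes were higher in part. Of 16 tested, 9 were called higher and 0 lower (median log2 1.06), against 3.43% and 2.98% of all tested genes. Their sum was 5115 against 1970 CPM in Flox and 3992 against 1854 CPM in HKO. With at least 2 Vwf UMIs required, 5 were called. Adgrg6, an adhesion G protein-coupled receptor, was at 738 against 49.2 CPM in Flox and 260 against 37.3 CPM in HKO (log2 3.37, SE 0.25). Bmx, a kinase of arterial endothelium, rose by 4.38 on the log2 scale, the matrix gene Fbln2 by 4.03, the Notch ligand gene Jag1 by 2.00, Mecom by 1.99 and Heg1 by 1.50. Genes that define arteries in many tissues were among the 7 not called: Efnb2 was at 206 against 156 CPM in Flox and 162 against 171 CPM in HKO (log2 0.11), Dll4 had a log2 difference of -0.03, Sox17 of -0.44 and Gja4 of 1.17 (adjusted p 0.14 by edgeR).

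The storage and haemostasis list was split. Of 14 tested genes, 5 were called higher and 3 lower, against 3.43% and 2.98% of all tested genes, with a median log2 difference of 0.54. DESeq2 called 3 of them, Selp, Edn1 and Ece1, all higher, and none of those called lower. Selp and Edn1, which encodes endothelin-1, a vasoconstrictor also stored in endothelial granules, were among those called higher. Edn1 (chromosome 13, 42301476 to 42307990, plus strand) was at 576 against 31.4 CPM in Flox and 766 against 73.3 CPM in HKO, and was found in 22 of 65 and 52 of 116 members (log2 3.65, SE 0.22). Ece1, the enzyme that matures endothelin, rose by 1.66, and Rab27a, a GTPase of granule release, by 1.35, the latter lost under 7 of the 10 alternatives. Ednrb, an endothelin receptor, was higher too (log2 3.02). Angpt2, itself a classic granule cargo, had 0 UMIs in the members of either library against 53 and 62 UMIs in Vwf-negative nuclei, at least 1.31-fold lower in Flox and 2.01-fold lower in HKO against a floor of 3 UMIs over the members of that library. Tfpi, the inhibitor of the tissue factor pathway, fell by 1.14 and was called lower.

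Matrix, adhesion and signalling genes added to the vascular profile, where 3.43% of all tested genes were called higher and 2.98% lower. Of 14 matrix genes, 6 were called higher and 0 lower, namely Fbln5 (log2 5.23) and Eln (3.70), both of elastic fibres, Mgp (2.64), Bgn (2.05), Fbln2 and Timp3 (0.98). Of 16 BMP and TGF-beta genes, 7 were called higher, among them Tgfb2 (4.62) and the receptor gene Tgfbr2 (1.99), and 1, Bmp2, lower. The shear and nitric oxide list had 5 genes called higher, including Klf4 (1.53) and Klf2 (0.79, lost under 7 of the 10 alternatives), which respond to flow, and 2 lower, Nostrin (-1.94) and Plpp3 (-0.99). Notch genes gave 3 higher, Dll1 (2.04), Jag1 and Notch1 (0.62, also lost under 7), and 0 lower of 10. With DESeq2 fewer calls were made, 5 over the matrix, 5 over the BMP and TGF-beta, 1 over the shear and nitric oxide and 1 over the Notch list. Alcam, which binds leukocytes, rose by 2.03. The interferon-induced chemokine genes Cxcl9 and Cxcl10 were called lower. Cxcl9 had 0 UMIs in the members against 96 and 105 UMIs in Vwf-negative nuclei, at least 2.38-fold lower in Flox and 3.41-fold lower in HKO. The call of Cxcl10 was lost under 4 of the 10 alternatives.

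Fewer or mixed calls were made in the pan-endothelial genes (4 higher and 0 lower of 20, led by Calcrl at 1.16 and Eng at 0.98), endothelial transcription factors (3 and 3 of 29), capillary genes (3 and 2 of 15, with Plvap, of the diaphragm of fenestrae, higher by 2.03 on the log2 scale), VEGF and angiopoietin genes (2 and 3 of 9), lipid uptake (2 and 2 of 10), early response genes (3 and 0 of 12), interferon-stimulated genes (0 and 1 of 15) and MHC genes (0 and 1 of 9). Over all tested genes 3.43% were called higher and 2.98% lower, so a single call in a list this short is no result about the list. DESeq2 called 0 genes of the VEGF, lipid, early response, interferon and MHC lists, 2 pan-endothelial and 3 transcription factor genes. Lymphatic genes had 2 called lower and 0 higher of 4 (median log2 -1.14), namely Lyve1 and Flt4, which sinusoids also express, and their sum was 728 against 1555 CPM in Flox and 727 against 1303 CPM in HKO. Nr2f2, the venous transcription factor COUP-TFII, was at 1575 against 951 CPM in Flox and 1318 against 1030.3 CPM in HKO (log2 0.50, adjusted p 0.0044 by edgeR), a call lost under 6 of the 10 alternatives. Hepatocyte genes had 5 called lower and 0 higher of 16 (median log2 -0.50), and leukocyte adhesion genes 3 and 2 of 11. The macrophage list had 0 genes called of 8, and the T cell, B cell and megakaryocyte lists 0 of 1, 2 and 2 by edgeR's test, where 2, 0, 1 and 0 genes had an unadjusted p under 0.05 and DESeq2 called 0 as well. In the stellate list Hgf, a hepatocyte mitogen that sinusoidal endothelium is also known to make, was called lower with 0 and 11 UMIs in the members, and in the mural list Abcc9 was called lower. Calls in the other direction came from the mesothelial list, where the 1 gene tested, Gpm6a, was higher (log2 3.50). The cholangiocyte list also had 1 gene of 3 called higher, Pkhd1l1 (log2 4.65).

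**Figure D3:**
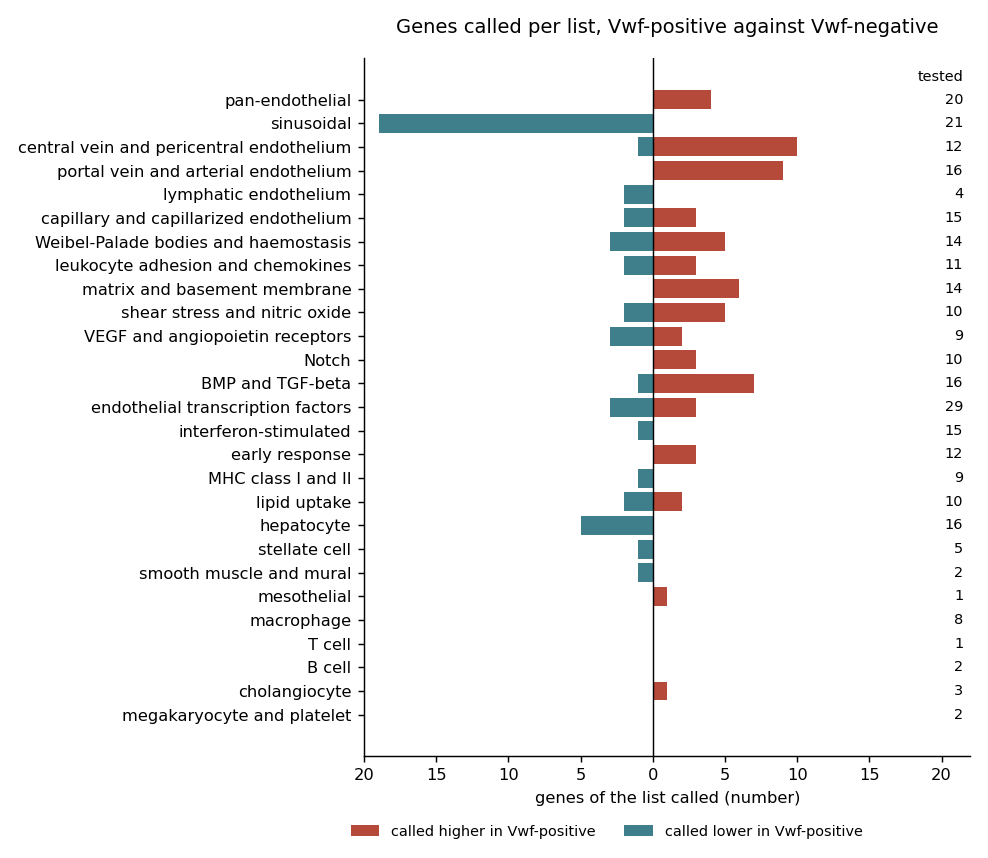
Number of genes of each of 27 lists called higher (red, right) or lower (blue-green, left) in Vwf-positive than in Vwf-negative endothelial nuclei at an adjusted p under 0.05, with the number tested at the right edge. The sinusoidal list stands out to the left with 19 of 21, and the central vein list (10 of 12) and portal and arterial list (9 of 16) to the right. The lists were chosen with earlier results of these data known.

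Over all tested genes, on a list or not, the 12 largest positive log2 differences ran from 6.05 down to 4.65. They belonged to Glp1r, Prss23, Cyp1b1, Fndc1, Bmp4, Hs3st1, Fbln5, Fmo2, Me3, Rassf9, Wnt9b and Pkhd1l1. Of these, Bmp4, Fbln5, Wnt9b and Pkhd1l1 also stand on lists. Fmo2, a flavin monooxygenase (chromosome 1, 162874317 to 162898726, minus strand), was the most abundant of the 12. It was at 1173 against 14.5 CPM in Flox and 1052 against 44.2 CPM in HKO (log2 5.16, SE 0.20) and was found in 32 of 65 and 53 of 116 members. Cyp1b1, a cytochrome P450, had 10 and 21 UMIs in the members against 0 and 6 in Vwf-negative nuclei, and the serine protease gene Prss23 had 16 and 26 against 2 and 5. Glp1r, the receptor for glucagon-like peptide 1, rested on 3 and 12 UMIs against 0 and 2, and its call ended with DESeq2.

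The 12 lowest differences all belonged to genes with 0 UMIs in the members of both libraries, so their fitted differences are no estimate of size, and the depth of the members limits what can be said. They were Cxcl9, Esm1, Enpep, Kcnj2, Knl1, Angpt2, P2ry1, Fam169b, Ighm, Acot4, Loxl2 and Tatdn1. For Kcnj2, Knl1, Fam169b and Acot4 the level in Vwf-negative nuclei of Flox was itself under the floor of 32.6 CPM that 3 UMIs give in the Flox members. Esm1, a gene of sprouting endothelium, had 54 and 108 UMIs in Vwf-negative nuclei and was at least 1.34-fold lower in Flox and 3.50-fold lower in HKO. Of the 12, Cxcl9 alone was also called by DESeq2.

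Within the members, Rspo3 and a set of 5 genes, 4 of them known from arteries, were mostly in different nuclei. The split and the set were drawn after the values were seen, and are given as a description. Rspo3 was found in 40 of 65 Flox (61.5%) and 77 of 116 HKO nuclei (66.4%). UMIs of the set (Adgrg6, Efnb2, Gja5, Gja4 and Col8a1) without Rspo3 were found in 24 and 27 nuclei, Rspo3 alone in 32 and 63, both in 8 and 14, and neither in 1 and 12. Nuclei with at least 3 UMIs of each numbered 1 and 1, where at least 3 Rspo3 UMIs were in 33 and 56 nuclei and at least 3 UMIs of the set in 18 and 18. Median depth was 1388 UMIs with and 1225 without Rspo3 in Flox, and 1027 and 1068 in HKO.

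**Figure D4:**
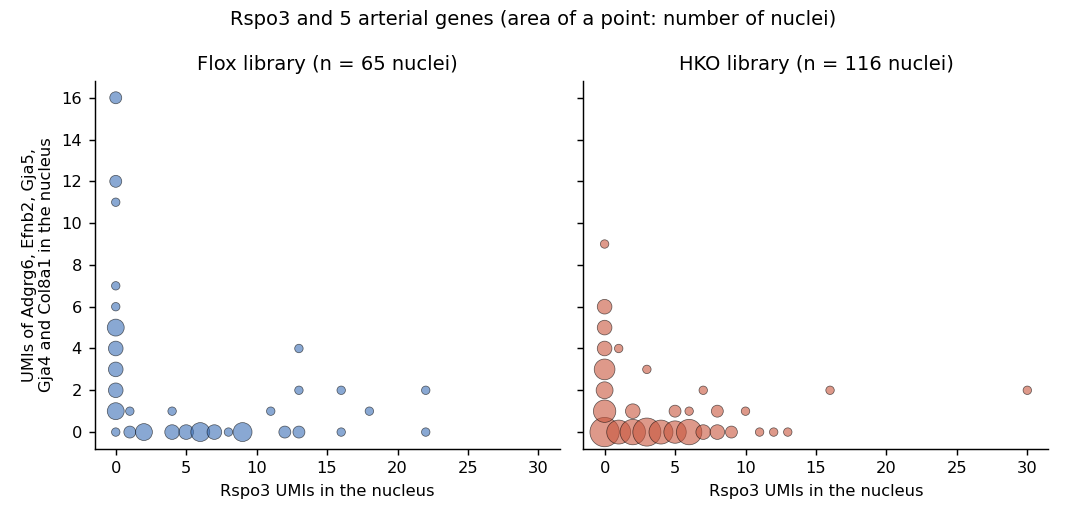
Rspo3 UMIs (horizontal axis) against the summed UMIs of Adgrg6, Efnb2, Gja5, Gja4 and Col8a1 (vertical axis) in each Vwf-positive nucleus of the Flox library (left, 65 nuclei) and the HKO library (right, 116 nuclei), where the area of a point gives the number of nuclei at that position. Most nuclei lie on 1 of the 2 axes: 8 Flox and 14 HKO nuclei held UMIs of both.

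Most central vein genes were higher in nuclei with Rspo3. In nuclei with Rspo3, Fmo2 was at 1798 CPM in Flox and 1602 CPM in HKO, against 0 and 72.1 CPM without it. Fmo2 is not on the central vein list. Bmp4 was at 549 and 1055 CPM with Rspo3 and at 62.4 and 108 CPM without, Edn1 at 816 and 1055 CPM with and 125 and 252 CPM without, and Selp at 383 and 436 CPM with and 62.4 and 72.1 CPM without. All 18 Wnt9b UMIs of Flox and all 18 of HKO lay in nuclei with Rspo3. Exceptions on the list were Gja5, with 0 and 1 UMIs in nuclei with Rspo3 against 9 and 18 without, Fabp4 in Flox, at 1049 CPM with and 1374 CPM without, and Thbd in HKO, at 203 and 180 CPM. Eng, a TGF-beta co-receptor gene, was at 1998 and 1298 CPM with Rspo3 and 531 and 234 CPM without.

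Several arterial genes were higher where Rspo3 was absent. Efnb2, the ephrin of arteries, was at 593 CPM in Flox and 415 CPM in HKO without Rspo3, and at 0 and 20.3 CPM with it. Gja5, which encodes the arterial connexin 40, was at 281 and 325 CPM without and 0 and 10.1 CPM with Rspo3, and Vegfc, a lymphatic growth factor gene, had all 8 and 6 of its UMIs in nuclei without Rspo3. Other genes of the portal and arterial list did not follow this. Heg1 was at 1299 CPM with and 874 CPM without Rspo3 in Flox and at 1004 and 649 CPM in HKO, and Bmx had 6 of its 8 UMIs in Flox and 9 of its 13 in HKO in nuclei with Rspo3. Fbln2 was at 649 and 656 CPM in Flox and at 629 and 198 CPM in HKO. Col8a1, which is on neither list, was at 1249 and 271 CPM without and 0 and 10.1 CPM with Rspo3, and the endothelin receptor gene Ednrb at 1124 and 523 CPM without and 83.3 and 142 CPM with. Nrg1, a growth factor gene chosen after its values were seen, was at 1280 and 667 CPM without and 99.9 and 112 CPM with Rspo3. Sinusoidal genes summed to similar levels on both sides, 6660 CPM with and 7024 CPM without Rspo3 in Flox and 5212 and 5717 CPM in HKO, all below the Vwf-negative nuclei. Macrophage genes in HKO were at 162 CPM with and 631 CPM without Rspo3. Whether leukocyte RNA took part in the values without Rspo3 was not tested.

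By the number of Vwf UMIs, which also chose the nuclei, Rspo3 was at 4640 CPM with at least 2 and 2743 CPM with 1 in Flox, and at 3481 and 1444 CPM in HKO. The summed central vein level, of which Rspo3 was a large part, was 8999 CPM with at least 2 Vwf UMIs and 5978 CPM with 1 in Flox, and 7455 and 3931 CPM in HKO. Single genes of the list differed in direction: Wnt2 in Flox was at 102 CPM with at least 2 and 208 CPM with 1, and Gja5 in HKO at 63.1 and 187 CPM. Edn1 was at 969 against 284 CPM in Flox and 1160.5 against 348 CPM in HKO. The portal and arterial sum differed little, at 4767 against 5372 CPM in Flox and 4049 against 3931 CPM in HKO.

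The genotypes were then compared within the members, to see whether vascular endothelium differed where hepatocytes were meant to lack Themis. Of 1609 genes with at least 30 UMIs, 49 (3.05%) were more than 2-fold higher and 52 (3.23%) more than 2-fold lower in the library labelled HKO, on a log2 scale with 10 CPM added, and the median log2 ratio was -0.08. In Vwf-negative nuclei 17 of the same 1609 genes passed 2-fold, in either direction. Those nuclei held 1240785 UMIs in Flox and 1583006 in HKO, against 92091 and 154065 in the members. The limit of 30 UMIs was also set on the members. Counting error was therefore larger in the members, and their numbers of genes past 2-fold cannot be set against these 17. Scaling by TMM factors moved the median by 0.17 and turned the split to 76 higher and 27 lower, and leaving out likely doublets left 29 higher and 38 lower, so directions of small ratios depend on the scaling. No test of these differences was possible.

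Central vein ligands did not shift together. Bmp4 was at 380.1 CPM in Flox and 714 CPM in HKO, 1.88 times as high in the library labelled HKO (1.27 to 2.83), and was found in 29.2% and 41.4% of members. For Rspo3, with 3551 and 2492 CPM, the ratio was 0.702 (0.604 to 0.816), or -0.51 on the log2 scale, and it came closer to 1 without likely doublets (log2 -0.21). Wnt9b had 18 UMIs in each library, a ratio of 0.598 (0.293 to 1.22), and Edn1 a ratio of 1.33 (0.955 to 1.88), intervals that include 1. Selp at 1.12 (0.678 to 1.91) and Fmo2 at 0.897 (0.699 to 1.15) did so as well. Summed over the list, central vein genes had a ratio of 0.791 (0.714 to 0.876) in members and 0.783 in Vwf-negative nuclei.

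Several arterial and vessel genes were lower in the library labelled HKO. Col8a1, a short-chain collagen gene (chromosome 16, 57624258 to 57754737, minus strand), was at 434 CPM in Flox and 104 CPM in HKO, a ratio of 0.239 (0.125 to 0.437), with 40 UMIs in 13 Flox nuclei and 16 UMIs in 9 HKO nuclei. For Adgrg6, found in 29 and 24 nuclei at 738 and 260 CPM, the ratio was 0.352 (0.232 to 0.527). The portal and arterial list as a whole had a ratio of 0.780 (0.691 to 0.882), Efnb2 of 0.787 (0.416 to 1.51) and Gja5 of 1.26 (0.544 to 3.17), so the list did not move as 1 block. Its summed ratio was not particular to it. In the members the sinusoidal list was at 0.795, the central vein list at 0.791 and the matrix list at 0.784. The Notch list was at 0.944 and the MHC list at 1.04. TMM factors moved the median log2 ratio of all genes by 0.17. The share of members without Rspo3, which held all 40 Col8a1 UMIs of Flox and 15 of the 16 of HKO, was 38.5% in Flox and 33.6% in HKO. Eng, at 1488 and 915 CPM, had a ratio of 0.615 (0.483 to 0.784, or log2 -0.69), which came to a log2 ratio of -0.25 with at least 2 Vwf UMIs, and the pan-endothelial sum one of 0.713 (0.655 to 0.776) in members and 0.855 (0.831 to 0.879) in Vwf-negative nuclei.

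**Figure D5:**
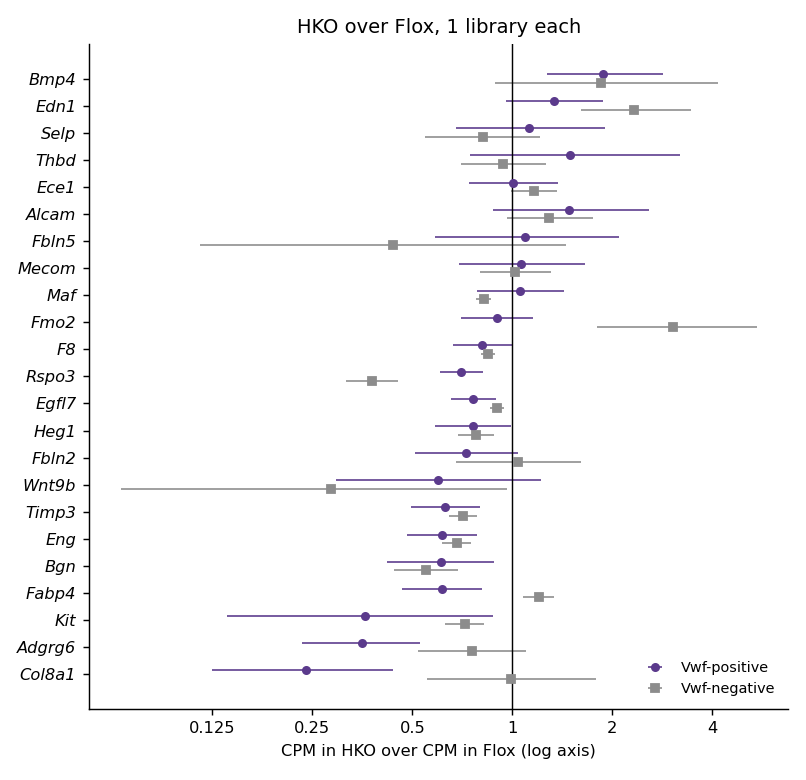
Ratio of CPM in the HKO library to CPM in the Flox library (horizontal axis, log scale) for 23 genes in Vwf-positive (purple circles) and Vwf-negative (grey squares) endothelial nuclei, with exact 95% intervals for counting error, 1 library per genotype. Bmp4 lies right of 1 at 1.88, and Adgrg6 (0.352) and Col8a1 (0.239) lie left of it with intervals that exclude 1 in Vwf-positive nuclei.

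The largest ratios toward the library labelled HKO included those of Cp, Ptprc, Gm29966, Psme4, Fmo5, Acaa1b, Zc3h13, Trps1 and Abcc2, with log2 ratios from 2.90 down to 1.88. Cp, Fmo5, Acaa1b and Abcc2 are genes of hepatocytes, and Ptprc is the leukocyte gene CD45. Cp had 2 UMIs in Flox and 35 in HKO, of which 1 nucleus held 10, and Gm29966 had 10 and 96, of which 1 nucleus held 51. Without likely doublets the log2 ratio of Abcc2 went from 1.88 to 0.38 and that of Gm29966 from 2.42 to 0.069. That of Ptprc went from 2.80 to 0.49 with at least 2 Vwf UMIs. Without likely doublets the Ptprc ratio stayed within its main 95% counting interval of 2.81 to 44.1. In HKO, 38 of its 44 UMIs lay in members with a single Vwf UMI. The 10 lowest were Col8a1, Dab2ip, Numb, Ly6e, Adgrg6, Tmed10, Trib2, R3hcc1l, Rcn1 and Ppia, from -1.96 to -1.41, and Ly6e, an interferon-inducible surface protein gene, had 59 UMIs in Flox and 33 in HKO. H2-Eb1, which encodes an MHC class II chain, had 0 UMIs in the Flox and 24 in the HKO members, the latter beside the 44 Ptprc UMIs of those nuclei.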

How the data were processed

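The authors deposited raw UMI counts per gene and barcode for each library, made per the labels with Cell Ranger 8.0.1 on GRCm38; the study's methods state that intronic reads were excluded. Each matrix held 32285 genes. The members and the gene lists were chosen with earlier results of these data known. Levels are shares of all UMIs summed over the nuclei named, times 1000000 (CPM). Class sums were tested in edgeR 4.0.16 (R 4.3.3) by quasi-likelihood with TMM factors, filterByExpr and Benjamini-Hochberg adjustment, after a check on simulated data. Besides genes of the lists, the rule named the 12 highest and 12 lowest of all those called, and the 10 highest and 10 lowest HKO to Flox ratios. Ratios of CPM carry exact conditional binomial 95% intervals, ratios of shares log-normal ones and shares exact Clopper-Pearson ones. A count of 0 was given a floor of 3 UMIs per library. Doublets were kept in the main results and removed in an alternative (Scrublet in scanpy 1.11.5, 7.49% and 8.58% of barcodes). Alternatives also used DESeq2 1.42.0, RLE factors, no filter, no block, depth-matched controls and stricter rules. Gene positions are from GENCODE on GRCm38. Of the genes that this rule names, 1 is not reported here.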

Additional observations from a re-analysis of the deposited data

Results flagged for a closer look

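For 7 genes the HKO to Flox ratio in Vwf-positive nuclei lay on the other side of 1 from that in Vwf-negative nuclei, with both 95% counting intervals excluding 1. The screen covered the named genes and the genes of the lists, without rule genes, that had at least 10 UMIs in the members. The number of genes screened was not recorded, so no share can be set beside the 7. The differences were not tested, since each genotype had 1 library. Ptprc had a ratio of 8.77 in Vwf-positive and 0.819 in Vwf-negative nuclei, with 24 of its 44 UMIs in 10 likely doublets. Without likely doublets its ratio in Vwf-positive nuclei stayed within its counting interval. Fabp4 had ratios of 0.6145 and 1.20, Ednrb of 0.627 and 2.11, and Bst2, an antiviral membrane protein gene, of 0.628 and 1.19. Cd74, Cybb and Hgf had 0 UMIs in the Flox members and were at least 1.99-fold, 1.99-fold and 2.19-fold higher in those of HKO, from 10, 10 and 11 UMIs, while their ratios in Vwf-negative nuclei were 0.713, 0.660 and 0.750.

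Vwf UMIs also lay outside the members, 34 in 22 nuclei of Flox and 71 in 54 nuclei of HKO, above the limit of 3 counts. Of these nuclei 13 and 20 had over 6000 UMIs, 11 and 39 had under 2 endothelial UMIs, and 10 and 15 had over 1 exclusion UMI, with some meeting more than 1 of these.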

How the results depend on the processing

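Sums rest on 92091 UMIs in the Flox and 154065 in the HKO members, so 3 UMIs equal 32.6 and 19.5 CPM and lower levels cannot be told from 0. Genes called higher numbered 95 with DESeq2, 147 with no library block, 186 with at least 2 Vwf UMIs and 181 with at least 3 endothelial UMIs, against 302. Genes called lower numbered 52, 81 and 150 with DESeq2, no block and at least 3 endothelial UMIs, against 262. At least 2 Vwf UMIs left 27 and 59 members, with 182 genes called lower. The cause of these falls was not tested for any setting. Sinusoidal genes called lower went from 19 to 12 with DESeq2, and portal and arterial genes called higher from 9 to 5 with at least 2 Vwf UMIs. Genes past 2-fold between genotypes went from 49 higher and 52 lower to 20 and 24 with at least 2 Vwf UMIs and to 76 and 27 with TMM factors, and those higher to 29 without likely doublets. Under the alternatives run, 46 of 107 followed genes kept their call throughout. In each library alone, which leaves no test, all 107 kept their direction, but they were followed because they were called over both libraries together. Of these single-library values, 116 lay further than the standard error from the fitted difference and 98 less far. The single-library values had 10 CPM added to each level and the fitted differences did not, which by itself shrinks the differences of genes at low levels. These counts therefore do not measure how far the libraries differ. With at most 10 hepatocyte UMIs a nucleus, the log2 difference of Apob turned to 0.061 between classes and the log2 ratio of Gm29966 to -0.11 between genotypes. The ratio of shares stayed within its interval, between 1.06 and 1.38. No paired analysis was possible between genotypes because each had 1 library.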

Other observations

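Rspo3 was also found in nuclei with no Vwf UMI detected. At least 3 Rspo3 UMIs were found in 77 endothelial nuclei of Flox and 81 of HKO, and 42.9% (exact 95% interval 31.6 to 54.6) of the former and 69.1% (57.9 to 78.9) of the latter held a Vwf UMI. The remaining 44 and 25 nuclei were Vwf-negative, and Rspo3 itself was lower in Vwf-negative nuclei of the library labelled HKO, at 114 against 301 CPM in Flox. Missed Vwf transcripts were not told apart from absent ones here, which limits these shares. Thinning to 500 UMIs alone took the Vwf-positive share of endothelial nuclei from 7.57% to 3.96% in Flox.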
